A study of Danio rerio with 3 samples.

Results

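The genes described here are zebrafish (Danio rerio) genes of synapses, ion channels and neurites. They were matched by gene symbol alone, through a pattern of symbol stems such as syt, snap, stx, gria, kcn, scn, stmn, cadm and ina. The pattern itself was set with earlier results of these data known. Of the 8793 genes that the platform annotation names with a single symbol, 105 matched. Expression was measured on 3 Affymetrix arrays, 1 per group, from total RNA of whole larvae at 192 h post-fertilization (hpf), and each gene was read through its brightest probe set, the set of short probes that together report a transcript. Exposed embryos were held 30 to a cup in 100 ml of zebrafish medium above 250 mg of oil emulsion from the Gulfport shoreline, collected after the Deepwater Horizon blowout and holding alkanes, polynuclear aromatic hydrocarbons, sand and seawater. The early exposure lasted from 0 to 48 hpf and was followed by 144 h in clean medium, the late exposure lasted from 48 to 96 hpf and was followed by 96 h in clean medium (together the exposure windows), and controls were raised in the same medium with no emulsion. The sources used here state neither the strain nor how many larvae went into each array.

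Chemical synapses pass signals when an action potential, carried by voltage-gated sodium and potassium channels, opens calcium channels in the nerve terminal. Calcium binds synaptotagmins, and the SNARE proteins of vesicle and plasma membrane (synaptobrevins or VAMPs, syntaxins and SNAP-25) then fuse the vesicle, so that transmitter reaches receptors on the next cell. Axons and dendrites are held in shape by neurofilaments and microtubules, and cell adhesion molecules such as neurexins, neuroligins, contactins and CADMs hold synaptic partners together.

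Each group is 1 array, so replicate spread is unknown, no test could be made, and each value describes these 3 arrays alone. Values are log2 expression values made with RMA (robust multi-array average), and a difference of 1 on this scale is a 2-fold difference. A gene was kept when its mean over the 3 arrays reached 7.21, the median of all deposited values, which left 5309 genes and 67 of the 105 members. Members were counted at 1.3-fold, a log2 difference of 0.38. For scale, probe sets that report 1 gene scattered about its mean with an SD of 0.11 in the early-exposure difference from control and 0.16 in the late-exposure difference (666 genes, 1451 probe sets). RMA sets all directions relative to the bulk of the genes on an array. The 18 hybridisation spike-in probe sets read added control transcripts that are not zebrafish genes. They differed from the control array by a mean of -0.50 (SD 0.12) on the early-exposure array and of 0.01 (SD 0.14) on the late-exposure array. On a spike-in scale every early-exposure difference would therefore be 0.50 higher. As hybridisation controls they report on the hybridisation step, so that scale is no measure of the amount of RNA per larva.

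On the early-exposure array the members as a group read lower than control. Of the 67 members kept, 51 (76.1%) were below control, against 50.0% of all genes kept, and their median log2 difference was -0.14, against 0.00 for all genes. At least 1.3-fold below control were 6 members (8.96%), against 2.24% of all genes, and 0 members were at least 1.3-fold above, against 1.26%. At least 1.5-fold below control was 1 member, the intermediate filament gene inaa, where the share over all genes was 0.603%. On the spike-in scale the median of the members was 0.36, and the counts became 0 lower and 31 higher. That scale shifts all genes alike, so the place of the members relative to other genes is unchanged. In RNA from whole larvae, fewer neurons and less RNA per neuron cannot be told apart.

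On the late-exposure array the median of the members was -0.08, against -0.02 for all genes kept, and 50 of 67 (74.6%) were below control, against 54.9% of all genes. At least 1.3-fold below control were 4 members (5.97%), against 3.37% of all genes, and 0 were at least 1.3-fold above, against 3.13%. At 1.5-fold 2 members were lower, cadm3 and scn8aa, against 0.622% of all genes. These are small counts. All 4 members lie under the 75th percentile of brightness, and among the 43 brighter members 0 were at least 1.3-fold lower. Both comparisons use the same control array, so a member whose control value happened to be high would read low in both windows.

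**Figure D1:**
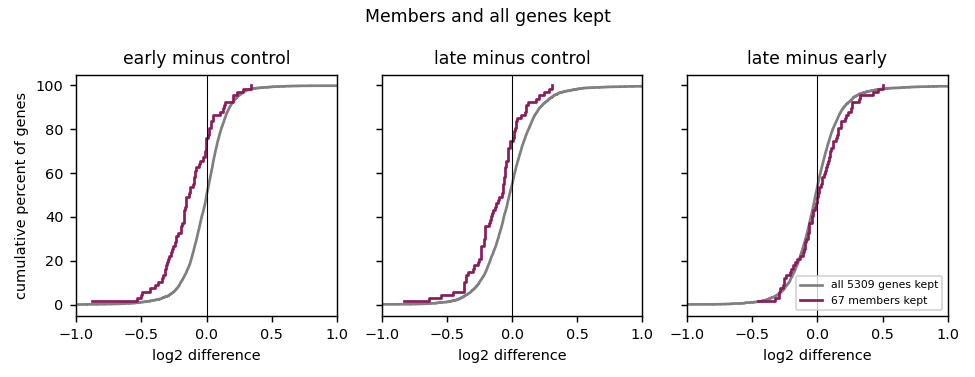
Cumulative share of genes (percent, vertical axis) against log2 difference (horizontal axis) for the 67 members kept and all 5309 genes kept, in the 3 comparisons. The members' curve lies to the left of all genes in both comparisons with control (medians -0.14 and -0.08) and close to it between the windows; on the spike-in scale both curves of the first panel would move right by 0.50 and those of the third left by 0.51.

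Vesicle calcium sensors and SNARE proteins had 17 of 28 members kept, with a median of -0.16 on the early-exposure array and -0.07 on the late-exposure array. The lowest after the early exposure was syt5a (NCBI Gene 436686), a synaptotagmin, which read 9.12 on the control array, 8.59 on the early-exposure array and 9.05 on the late-exposure array. Its early-exposure level was thus 1.45-fold below control, while its late-exposure level lay within 0.07 of control. The gene stxbp5a (556789) encodes tomosyn, which binds syntaxin and restrains SNARE assembly. It read 9.02, 8.53 and 8.79 in the same order, a difference of -0.49 after the early and -0.24 after the late exposure. The gene of synaptotagmin 1, syt1a (436736), the calcium sensor of fast release, read 11.43, 11.03 and 11.25, which is 1.32-fold below control after the early exposure and 1.13-fold below after the late. For all of these, in the probe sets used, the control array was the highest and the early-exposure array the lowest. Another bright probe set of syt1a read 10.02, 9.75 and 9.69, lowest on the late-exposure array. It was less than 1.3-fold below control on both exposed arrays (-0.27 and -0.33). The spike-in scale turns the early-exposure difference of stxbp5a to 0.01 and of syt1a to 0.10.

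Other genes of the release machinery differed from control by less than 1.3-fold on both exposed arrays. The genes of SNAP-25, the plasma membrane SNARE of nerve terminals, were close to each other: snap25a differed by -0.17 and -0.21 and snap25b by -0.29 and -0.17 after the early and late exposures. In the same order syt11a differed by -0.30 and -0.29, syt9a by -0.16 and -0.24, the clathrin adaptor snap91b by -0.16 and -0.21, and the vesicle SNARE vamp1a by -0.10 and -0.05. The complexin cplx2a, a clamp and helper of SNARE fusion, differed by -0.03 and 0.04. The amisyn-like gene stxbp6l stood on opposite sides of control, at -0.22 and 0.10. Vesicle proteins outside this machinery included sv2bb, a glycoprotein of synaptic vesicles, at -0.31 and -0.30, the synuclein sncgb at -0.27 and -0.15, and its relative sncb at 0.14 and -0.04.

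Several members of these families work in many cell types besides neurons. The endosomal SNARE gene vamp8 read 7.06 on the control array, 7.25 on the early-exposure array and 7.36 on the late-exposure array, so that it passed the filter only through the exposed arrays. The related vamp3 differed from control by 0.11 and 0.01, the Munc18 relatives stxbp3 and stxbp2 by 0.14 and 0.07 and by 0.03 and 0.10, and syngr2a and syngr2b, synaptogyrins found outside neurons, by 0.24 and -0.06 and by 0.20 and 0.10. The syntaxin stx4 lay at -0.01 and -0.03.

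**Figure D2:**
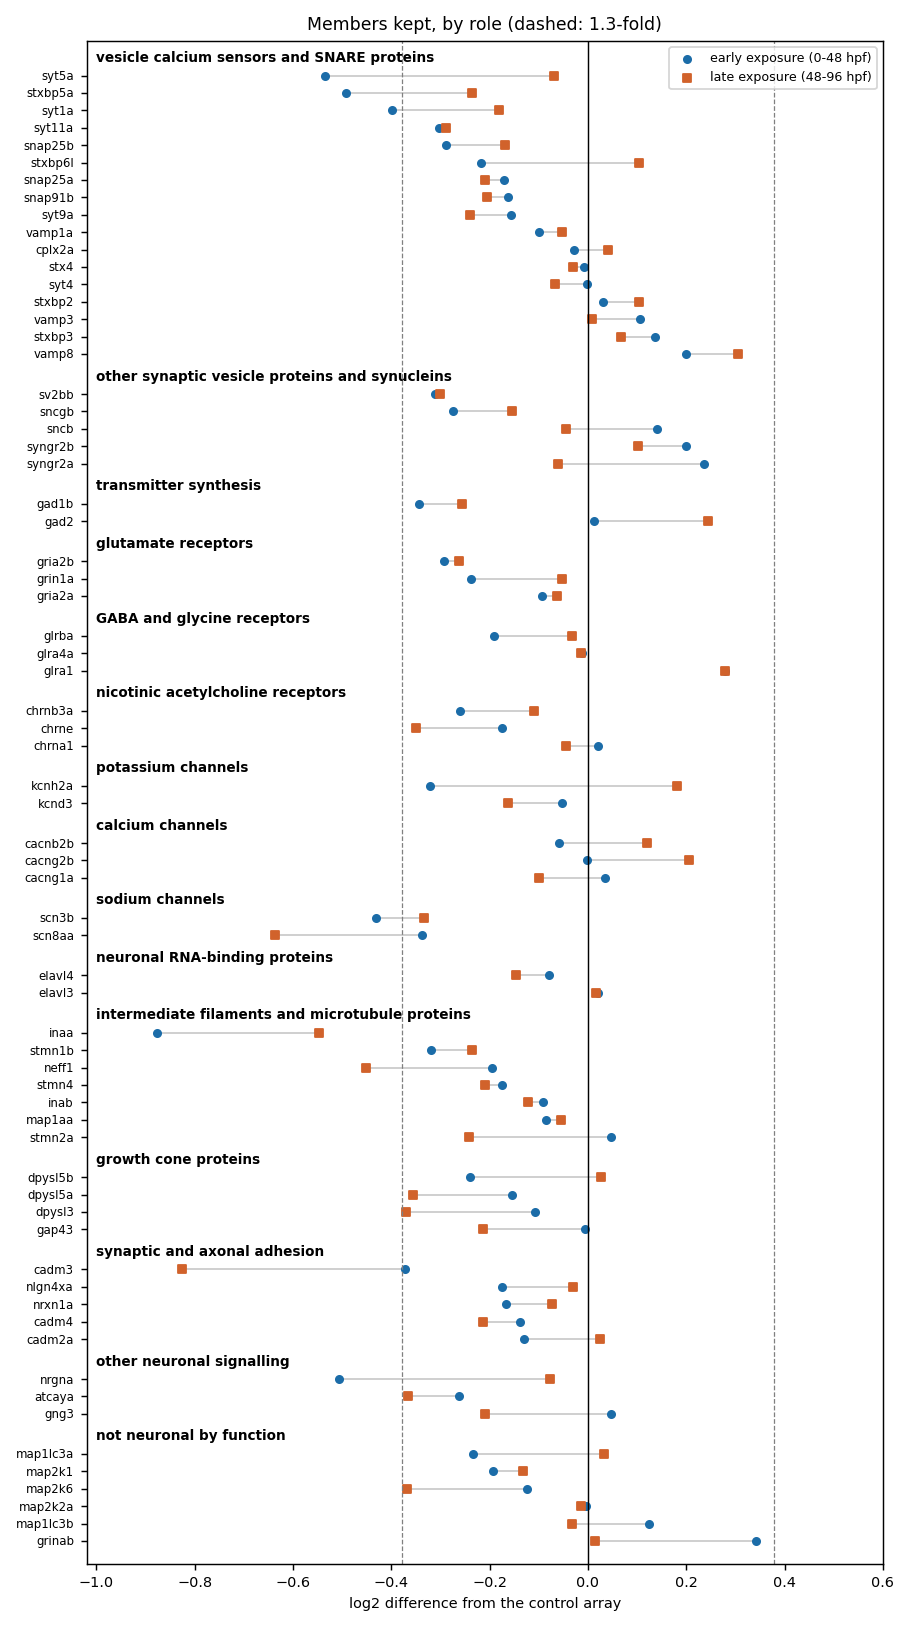
Log2 difference from the control array (horizontal axis) for each of the 67 members kept, grouped by role, with circles for the early exposure and squares for the late exposure; dashed lines mark 1.3-fold. The 6 circles left of the lower dashed line are inaa, syt5a, nrgna, stxbp5a, scn3b and syt1a, and the 4 squares are cadm3, scn8aa, inaa and neff1; on the spike-in scale all circles would move right by 0.50, and none would lie left of that line.

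The GABA-synthesising enzymes differed from each other. The gene gad1b, encoding the GAD67 form of glutamate decarboxylase, read 10.39 on the control array, 10.05 on the early-exposure array and 10.14 on the late-exposure array, differences of -0.34 and -0.26. The gene gad2, encoding the GAD65 form found at terminals, read 9.37, 9.38 and 9.61, differences of 0.01 and 0.25. Control was the highest array for gad1b, while for gad2 it was level with the early-exposure array and below the late-exposure array, and neither gene reached 1.3-fold. The early-exposure values of both would be above control on the spike-in scale. Outside the members, slc32a1, which loads GABA and glycine into vesicles, was at -0.34 and -0.31, while abat, which breaks GABA down, was at 0.06 and 0.14.

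Receptor genes that passed the filter stayed within 1.3-fold of control. All 3 glutamate receptor genes were kept and were below control in both windows in the probe sets used. They are the AMPA receptor subunits gria2b (-0.29 and -0.26) and gria2a (-0.09 and -0.06) and the NMDA receptor subunit grin1a (-0.24 and -0.05). On the spike-in scale all 3 early-exposure values would be above 0. Another bright probe set of grin1a read -0.11 and 0.04, so its sign after the late exposure depends on the probe set. Of 7 GABA and glycine receptor genes 3 were kept: the glycine receptor subunits glrba (-0.19 and -0.03), glra4a (-0.01 and -0.01) and glra1 (0.28 and 0.28). The subunit glra1 was thus equally far above control on both exposed arrays. Of the nicotinic acetylcholine receptor genes, chrnb3a, a neuronal subunit, was at -0.26 and -0.11, and the muscle subunits chrne and chrna1 were at -0.18 and -0.35 and at 0.02 and -0.04. The 26 skeletal muscle markers kept had medians of 0.03 after the early and -0.04 after the late exposure. In either window 0 of them were at least 1.3-fold below control, against 2.24% (early) and 3.37% (late) of all genes kept. At such shares a count of 0 among 26 genes says little. The part of muscle in the values of chrne was not tested.

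The sodium channel genes kept were both below control in both windows. The gene scn8aa (58152), encoding the pore of a neuronal sodium channel related to mammalian Nav1.6, read 7.89 on the control array, 7.55 on the early-exposure array and 7.25 on the late-exposure array. It was 1.26-fold lower after the early and 1.55-fold lower after the late exposure. The gene of an auxiliary sodium channel subunit, scn3b (563935), read 8.04, 7.61 and 7.70, which is 1.35-fold and 1.26-fold lower. The late-exposure value of scn8aa lies close to the filter of 7.21. The early-exposure difference of scn3b would be 0.07 on the spike-in scale. The sodium channel genes scn4bb and scn1laa were under the filter.

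Potassium and calcium channels showed no common direction. Channels of the ERG type are best known in mammals for repolarising the heart, and kcnh2a (563802) encodes a channel of this type. It read 9.56 on the control array, 9.24 on the early-exposure array and 9.75 on the late-exposure array, so the early-exposure array was the lowest and the late-exposure array the highest. The 5 cardiac muscle markers kept had medians of 0.18 after the early and -0.27 after the late exposure, opposite in sign to kcnh2a (-0.32 and 0.18). Scaled to the spike-ins, the early-exposure values were 0.68 for these markers and 0.18 for kcnh2a, of the same sign. The early and late values of kcnh2a were then nearly equal. The part of the heart in the values of kcnh2a was not tested. The A-type potassium channel gene kcnd3 differed by -0.05 and -0.16. Under the filter were 6 of 8 potassium channel genes, among them the other kcnh gene, kcnh6a (4.31, 4.21 and 4.09). Among calcium channels, the auxiliary subunits cacnb2b (-0.06 and 0.12) and cacng2b (0.00 and 0.21), the latter a stargazin that carries AMPA receptors to synapses, and the muscle subunit cacng1a (0.04 and -0.10) were kept.

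Intermediate filament genes held the largest early-exposure difference among the members. The gene inaa (555251), encoding an internexin, a filament protein of neurons, read 8.55 on the control array, 7.67 on the early-exposure array and 8.00 on the late-exposure array. It was 1.84-fold lower after the early exposure and 1.46-fold lower after the late exposure. Its early-exposure difference on the spike-in scale shrinks to -0.38, just short of 1.3-fold. Its paralog inab, from the same duplicated ancestor, read 8.32, 8.23 and 8.20 and so lay within 0.13 of control on both arrays. A further neuronal filament gene, neff1 (321113), read 7.84, 7.65 and 7.39, differences of -0.20 and -0.45. A dimmer probe set of neff1, under the filter, read -0.21 and -0.05.

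Microtubule and growth cone genes had lower medians after the late than after the early exposure. Stathmins destabilise microtubules, and among them stmn1b was at -0.32 and -0.24, stmn4 at -0.18 and -0.21 and stmn2a at 0.05 and -0.24 after the early and late exposures. The microtubule-associated gene map1aa was at -0.09 and -0.05. All 7 filament and microtubule genes kept were below control after the late exposure (median -0.24) and 6 of 7 after the early exposure (median -0.18). Of the collapsin response mediators, which relay semaphorin signals in growth cones, dpysl3 was at -0.11 and -0.37, dpysl5a at -0.16 and -0.36 and dpysl5b at -0.24 and 0.03, and the growth cone group had medians of -0.13 and -0.28. The growth cone phosphoprotein gene gap43 read 9.79, 9.78 and 9.57, below the other arrays after the late exposure alone. On the spike-in scale the early-exposure medians of these groups would be above 0.

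The HuC and HuD genes, RNA-binding proteins used as general markers of neurons, differed little from control in the probe sets used. The HuC gene elavl3 read 10.51, 10.53 and 10.53 and the HuD gene elavl4 read 10.53, 10.45 and 10.38. The other bright probe sets of elavl3 read 0.17 and 0.28 above control after the early exposure, and -0.29 and -0.14 after the late exposure, so that the probe sets of this gene disagreed after the late exposure.

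Among adhesion genes, all 5 kept were below control after the early exposure (median -0.17) and 4 of 5 after the late exposure (median -0.07); on the spike-in scale the former would be 0.33. The gene cadm3 (692273), a nectin-like molecule between axons and their partners, had the largest late-exposure difference of all members. It read 8.50 on the control array, 8.12 on the early-exposure array and 7.67 on the late-exposure array, which is 1.29-fold and 1.77-fold lower. Its relatives cadm4 (-0.14 and -0.21) and cadm2a (-0.13 and 0.03) stayed closer to control, as did the neuroligin nlgn4xa (-0.17 and -0.03) and the neurexin nrxn1a (-0.17 and -0.07). A dimmer probe set of nlgn4xa read -0.05 and -0.32. The contactin genes cntn1a, cntn1b, cntn2 and cntn5 were under the filter.

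Of the remaining neuronal signalling genes, nrgna (567608) encodes neurogranin, which binds calmodulin in dendrites. It read 8.86 on the control array, 8.35 on the early-exposure array and 8.78 on the late-exposure array, 1.42-fold lower after the early exposure and 1.05-fold lower after the late. The early-exposure array thus stood apart from the other arrays, as for syt5a. On the spike-in scale the early-exposure values of both genes would be 0.50 higher and so close to control. The gene atcaya, whose human counterpart is mutated in Cayman ataxia, differed by -0.26 and -0.37, and gng3, a G protein gamma subunit of neurons, by 0.05 and -0.21.

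**Figure D3:**
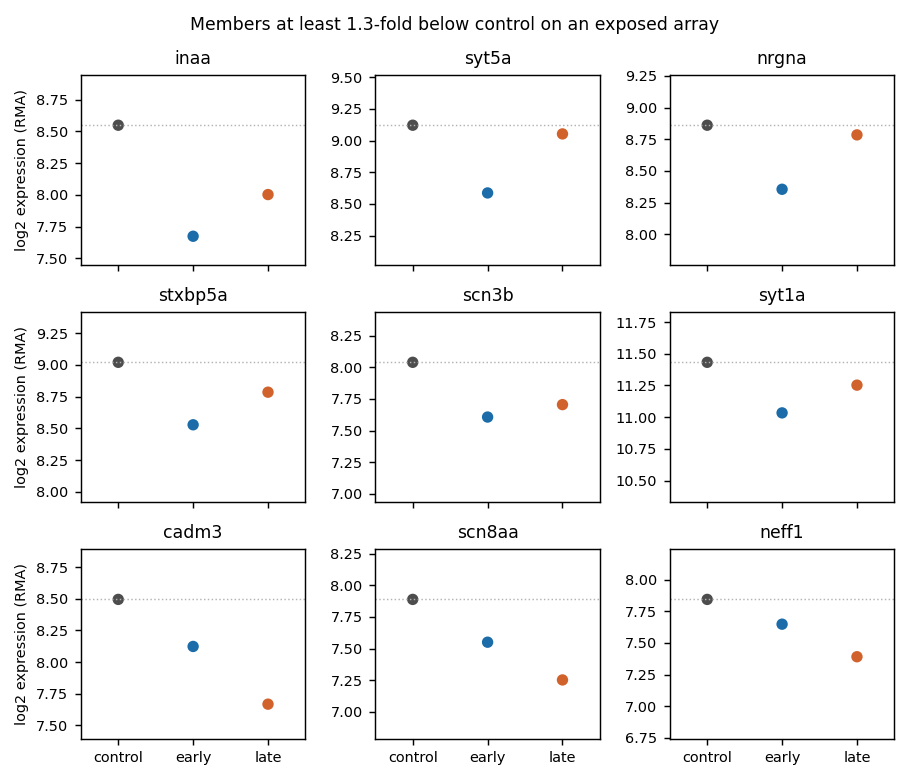
Log2 expression (RMA, vertical axis) on the control, early-exposure and late-exposure arrays for the 9 members at least 1.3-fold below control on an exposed array; each panel has its own range of equal height, and the dotted line marks the control value. In the probe sets used, the early-exposure array is the lowest for inaa, syt5a, nrgna, stxbp5a, scn3b and syt1a. The late-exposure array is the lowest for cadm3, scn8aa and neff1, and for another bright probe set of syt1a that is not drawn. The early-exposure points would be 0.50 higher on the spike-in scale.

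Whether a member passed 1.3-fold in 1 window and not in the other is no test of a difference between windows. Set directly against each other, without the control array, the exposed arrays had a median difference of 0.00 over the members, late minus early, against -0.02 over all genes kept. At least 1.3-fold higher after the late exposure were 3 members, kcnh2a (0.50), syt5a (0.47) and nrgna (0.43), a share of 4.48% against 2.88% of all genes. At least 1.3-fold lower was 1 member, cadm3 (-0.46), a share of 1.49% against 2.47%. Both shares rest on few genes and lie near those of all genes. They also depend on the probe set used. For elavl3 the probe set used read -0.0042, late minus early, while its other bright probe sets read -0.46 and -0.41, past 1.3-fold. Scaled to the spike-ins, kcnh2a, syt5a and nrgna would be at -0.01, -0.04 and -0.08.

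Symbols caught by the pattern include 8 genes that do not belong to synapses by function, of which 6 were kept. They are the MAP kinase kinases map2k1 (-0.19 and -0.13), map2k2a (0.00 and -0.01) and map2k6 (-0.12 and -0.37), the autophagy genes map1lc3a (-0.23 and 0.03) and map1lc3b (0.13 and -0.03), and grinab, a membrane protein related to BAX inhibitors (0.34 and 0.01), which had the highest early-exposure difference of all members kept. Without these genes the medians were -0.16 after the early and -0.10 after the late exposure over 61 members. The 61 still hold genes of muscle or of many cell types, such as chrne, chrna1, vamp8 and syngr2a. These are thus not medians of neuronal genes alone.

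The 38 members under the filter had means below 7.21 and are given mainly as counts. Of these, 22 (57.9%) were below control after the early exposure (median -0.02), against 52.2% of all 3484 genes under the filter, and 16 (42.1%) after the late exposure (median 0.01), against 37.9%. At least 1.3-fold below control after the early exposure were 3 of them, where the share over all genes under the filter was 1.49%. They are the receptor subunits glra3 (7.25 on the control, 6.71 on the early-exposure and 7.24 on the late-exposure array) and glra4b (-0.38) and the potassium channel gene kcnb2a (-0.48). Above control by 1.3-fold after the late exposure was 1, the autophagy gene map1lc3c (0.40), where the share over all genes under the filter was 5.83%. In the opposite directions 0 were 1.3-fold higher after the early and 0 lower after the late exposure, against 0.603% and 2.53% of all genes under the filter. Presynaptic genes that could not be read above the filter include syn1 and syngr1a. Over all 105 members the medians were -0.09 and -0.05.

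Genes whose symbols differ only in a final a or b, which in fish often go back to a duplication of the whole genome, were kept together for 6 pairs. The genes snap25a and snap25b differed from each other by 0.12 after the early and 0.04 after the late exposure. The genes inaa and inab differed by 0.79 and 0.43, the most of the 6 pairs on each array. The pair gria2a and gria2b differed by 0.20 in both windows, with gria2b lower. Probe sets that read the same transcript gave a further check on single values. Of the 18 members with several probe sets, 7 had more than 1 above the filter. Those of syt1a (-0.40 and -0.27 early, -0.18 and -0.33 late) and sncgb (-0.27 and -0.20, -0.15 and -0.18) had the same sign in both windows. Those of syt11a did not: its brighter probe set read -0.30 and -0.29 and the other -0.03 and 0.12. For sncb the early-exposure values were 0.14 and -0.03, and for syngr2b 0.20 and 0.04.

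**Figure D4:**
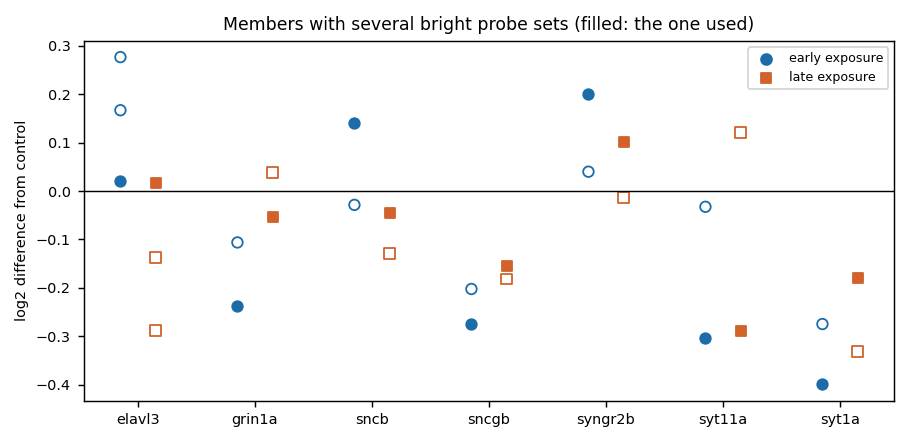
Log2 difference from control (vertical axis) of each probe set above the filter, for the 7 members with more than 1; circles are the early exposure, squares the late exposure, and filled symbols mark the probe set used. Both probe sets of syt1a and sncgb lie below 0 in both windows, while those of elavl3, grin1a, syngr2b and syt11a disagree in sign after the late exposure; on the spike-in scale all circles would be 0.50 higher.

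Other genes of the nervous system, from lists that hold no member, gave the following medians. Of the presynaptic machinery list 10 of 44 genes were on the array under that symbol and 9 were kept, and all 9 were below control in both windows (medians -0.22 and -0.10). They include the synaptophysins sypa (-0.24 and -0.03) and sypb (-0.25 and -0.06) and the calsyntenin clstn1 (-0.48 and -0.61), the only gene of the list at least 1.3-fold lower. Of 22 general neuronal markers and microtubule proteins, 20 (90.9%) were below control in each window (medians -0.11 and -0.19). Over all genes kept the shares were 50.0% and 54.9%. At least 1.3-fold lower were 0 after the early and 5 (22.7%) after the late exposure, against 2.24% and 3.37% of all genes. Among the 5 were rbfox1, a splicing factor of neurons (-0.30 and -0.63), ywhag2 (-0.10 and -0.49) and nsg2 (-0.08 and -0.43). The HuC and HuD genes, which differed little from control in the probe sets used, are members and so not in this list. Neuropeptide and dense-core granule genes had medians of -0.11 and -0.12 (11 genes), and axon guidance genes -0.02 and -0.05 (23 genes). Transmitter enzymes and transporters had medians of -0.01 and 0.07 (4 genes), and other receptors and postsynaptic scaffolds -0.09 and -0.05 (3 genes). On the spike-in scale the early-exposure medians of all these lists would be above 0.

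Markers of particular cell types were read beside these genes. Neural progenitor markers had medians of -0.04 in both windows (16 genes). Glial and myelin markers had medians of -0.02 and -0.07 (12 genes), with 6 above and 6 below control after the early exposure. The myelin basic protein gene mbpa was at -0.57 and -0.13, and its relative mbpb at -0.12 and -0.16. Above control in both windows were glulb (0.26 and 0.13), apoeb (0.15 and 0.43), cldnk (0.08 and 0.16) and sox10 (0.11 and 0.03). Photoreceptors, which share parts of the release machinery with other neurons, stood further from control. Of 25 photoreceptor markers, 24 were below control after the early exposure (median -0.50) and 21 after the late exposure (median -0.27). The gene pde6c was at -0.86 and -0.37, while gnat1, at -0.77 and -0.89, was lower after the late than after the early exposure. Of the 4 markers above control after the late exposure, opn1mw2 was the furthest from it. This gene read 7.17 on the control array, 7.05 on the early-exposure array and 8.47 on the late-exposure array. It thus passed the filter only through the late-exposure array. The 6 lens markers had medians of -0.41 and -0.13. Photoreceptor markers, lens markers and the members thus all had a lower median after the early than after the late exposure. Set directly against each other, late minus early, the exposed arrays had medians of 0.27 for photoreceptor and 0.27 for lens markers. Over the members that median was 0.00, with 34 above and 33 below 0, so the members as a group showed no such difference. The list of general neuronal markers and microtubule proteins had a lower median after the late exposure. On the spike-in scale the late-exposure median would be the lower for each of these lists and for the members. Islet cells also use parts of this machinery. Their 6 markers had medians of -0.03 and 0.12, with sst2 at 0.65 and 0.40, and neurod1, which neurons express too, at -0.32 and -0.44. The part of the retina and of islets in the values of the synaptic genes was not tested.

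**Figure D5:**
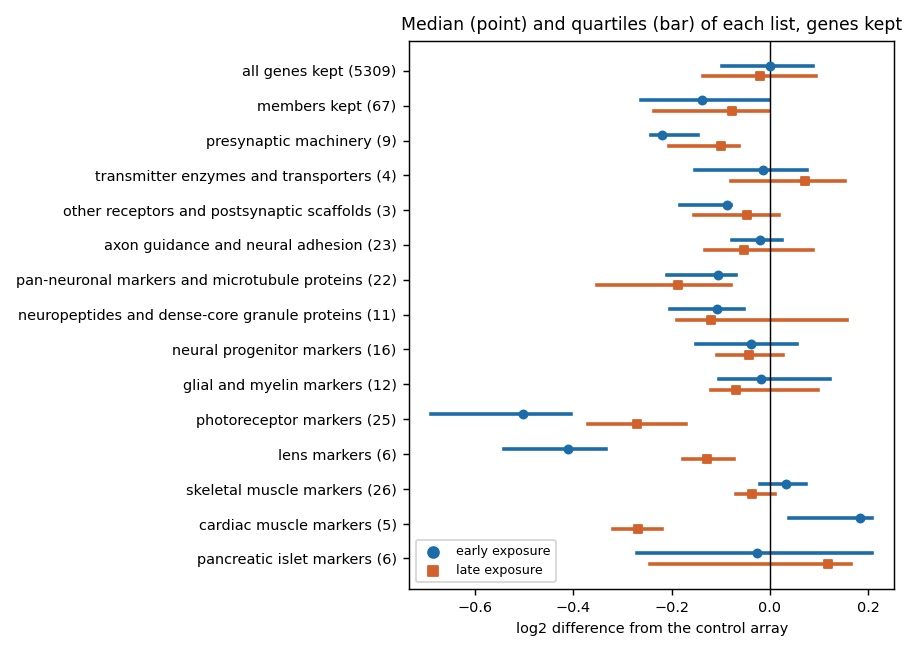
Median (points) and quartiles (bars) of the log2 difference from control (horizontal axis) for all genes kept, the members kept and 13 lists that hold no member, with the number of genes kept in brackets; circles are the early and squares the late exposure. The members lie at -0.14 and -0.08, between all genes (0.00 and -0.02) and the photoreceptor markers (-0.50 and -0.27); the early-exposure points would all be 0.50 higher on the spike-in scale.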

How the data were processed

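The deposited table holds log2 values of 15617 probe sets on 3 arrays, made by the authors with RMA per the submitters' processing notes; software, version and genome build are not stated in the labels, so no coordinates are printed. Names came from the 2016 platform annotation, in which 10802 had 1 symbol, 135 several. All 105 members matched a RefSeq gene ID with the same symbol (GRCz12tu table). The probe set with the highest mean over the 3 arrays stood for a gene. No scaling was added. With 1 array a group, differences were described by counts at 1.3-fold and 1.5-fold and by medians, beside all genes kept. Members named were the 10 highest and 10 lowest of each comparison with control, the 5 highest and 5 lowest between windows, the 3 with the largest difference in each role, the gad, gap43, elavl, snap25, ina and nef genes, and paralogs where either passed 1.3-fold. Other members are named to complete a role or a count and were chosen after their values were seen. From each other list up to 3 genes were named, and further glial and myelin markers were added after their values were seen. The members, roles and lists were chosen with earlier results of these data known. The array number limits the precision. The counting step was tested on simulated data. Python 3.11.15, pandas 2.3.3, statsmodels 0.14.6 and numpy 2.4.6 were used.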

Additional observations from a re-analysis of the deposited data

Results flagged for a closer look

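The potassium channel gene kcnh2a stood on opposite sides of control in the windows, at -0.32 after early and 0.18 after late exposure, and the late-exposure array was higher than the early-exposure array by 0.50 (1.42-fold). Scaled to the spike-ins, both values lay above control, at 0.18 and 0.17, and the late-minus-early difference was -0.0075. The difference was not tested, since each group is 1 array.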

How the results depend on the processing

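No paired analysis was possible because each group is 1 array and the labels give no replicate numbers. There were 10 alternatives. They were centring, loess with span 0.3, quantile normalization, spike-in scaling, 2 choices of probe sets, 3 filters, and dropping the 8 symbols called non-neuronal. Spike-in scaling moved the most. It gave 31 members at least 1.3-fold higher and 0 lower after the early exposure, and 0 higher and 50 lower after the late than after the early exposure. The medians of the members became 0.36 and -0.51. The early-exposure and late-against-early medians became 0.34 and -0.46 for SNARE proteins, 0.64 and -0.61 for other vesicle proteins, 0.26 and -0.48 for glutamate receptors, 0.49 and -0.51 for GABA and glycine receptors, 0.33 and -0.57 for nicotinic receptors, 0.50 and -0.33 for calcium channels, 0.33 and -0.54 for filaments and microtubules, 0.37 and -0.71 for growth cones, 0.33 and -0.42 for adhesion, 0.24 and -0.61 for other signalling, and 0.44 and -0.59 for non-neuronal symbols. Among members past 1.3-fold without that scaling, early-exposure differences changed sign for scn3b (to 0.069), stxbp5a (0.0078) and syt1a (0.10). Late-against-early differences changed sign for kcnh2a (to -0.0075), nrgna (-0.081) and syt5a (-0.044). Without the filter, 1 member was higher after the late exposure than in control and 5 were higher after the late than after the early exposure. The GABA and glycine receptor medians were then -0.19 for the early exposure against control and 0.16 for late against early. Keeping genes above the 75th percentile (8.48) gave 0 members lower after the late exposure and 0 between the windows, since dimmer members are left out, and the glutamate receptor median of the early exposure was -0.094. The mean over probe sets put the adhesion median between the windows at -0.064. Apart from these, 52 of 60 counts stayed within 1.5 times. Less than the SD between probe sets of a gene was the move of 290 of 318 medians and 852 of 966 single-gene values. That SD was 0.11 (early), 0.16 (late) and 0.13 (between windows), beside medians of the members of -0.14, -0.08 and 0.00. A small median could thus change sign and still be counted, as adhesion between the windows did without the filter (0.093 to -0.023). The tally therefore does not show that small medians keep their direction. The late-exposure counts lower ranged from 0 to 5. The cause of the spike-in difference was not tested.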
